A study of Mus musculus with 71 samples.

Results

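The nucleus accumbens (NAc), the ventral part of the striatum, was compared with the prefrontal cortex (PFC) in mice that had self-administered saline and were taken after 28 days of abstinence. The comparison used 11 of the 71 RNA-seq libraries of the study, namely the 6 saline NAc libraries and 5 of the 6 saline PFC libraries. The mice were wild type and of the strain C57BL/6 (C57BL/6J in the study's methods), and neither group had received cocaine. Tissue came from micro-punches of 1-mm brain sections, so each library mixes all the cell types under the punch, and a punch can take in neighbouring tissue. The study followed gene expression after cocaine in these regions and in the ventral tegmental area. The saline libraries show how the regions differ without the drug. PFC library 4 was left out because genes typical of the striatum were high in it, a choice made from measured values. The numbers of genes that differed by at least 2-fold are also given with it. So are the counts for the medium spiny neuron and cortical excitatory neuron lists, while most other list counts are given without it only. The cocaine libraries of the same time point, 6 of each region, were used to see which differences recurred in other mice.

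As background, most neurons of the NAc are GABAergic medium spiny neurons, which receive dopamine from the midbrain and glutamate from the cortex. Those of the direct pathway carry the D1 dopamine receptor with the peptides dynorphin and substance P, and those of the indirect pathway carry the D2 receptor with enkephalin and the adenosine receptor ADORA2A. The PFC is a layered cortex in which glutamatergic pyramidal neurons outnumber GABAergic interneurons, and its pyramidal neurons project to the NAc among other targets. The striatum derives from the subpallium of the embryo and the cortex from the pallium, and each keeps some of the transcription factors of its origin into adult life.

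Between 30141636 and 42002562 reads per library fell on genes in the saline NAc and between 31827950 and 48936621 in the saline PFC. Levels are given as CPM, counts per 1000000, that is reads on a gene relative to the reads of its library after scaling by TMM (the trimmed mean of M-values). Over 31 medium spiny neuron genes tested, the median level of a gene in a PFC library was 5.55% to 6.96% of its NAc mean in the 5 libraries used, and 48.3% in PFC library 4, which stood apart. Over 32 cortical excitatory neuron genes tested, the median level of a gene in a NAc library was 24.5% to 34.5% of its PFC mean, with the highest shares in NAc libraries 6 (34.5%) and 1 (28.6%). All 12 saline libraries carried Y-linked transcripts (Ddx3y at 30.9 to 52.1 CPM) and had Xist at no more than 0.0992 CPM, which is the pattern of males in both regions.

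Gene expression differed widely between the regions. Of 16543 genes tested with edgeR's quasi-likelihood test, 4197 (25.4%) were higher in the NAc and 4303 (26.0%) in the PFC at an adjusted p under 0.05 (Benjamini-Hochberg). With a change of at least 2-fold as well, 937 genes (5.66%) were higher in the NAc and 1002 (6.06%) in the PFC. Since 51.4% of all genes passed the first rule, a count of passing genes in a list is read against these shares. For 5749 genes (34.8%) the 6 NAc and 5 PFC libraries did not overlap. Long non-coding RNAs took part: 48 of 500 lincRNAs were at least 2-fold higher in the NAc and 38 in the PFC, beside 831 and 926 of 14837 protein-coding genes. With PFC library 4 included, 794 and 941 genes passed the 2-fold rule, and without NAc library 6, 924 and 1035. In bulk tissue, fewer cells of a type and less RNA per cell cannot be told apart. None of these differences can therefore be read as a difference per cell. The regions were also deposited as separate tables, and any difference in how their libraries were made cannot be told apart from region.

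**Figure D1:**
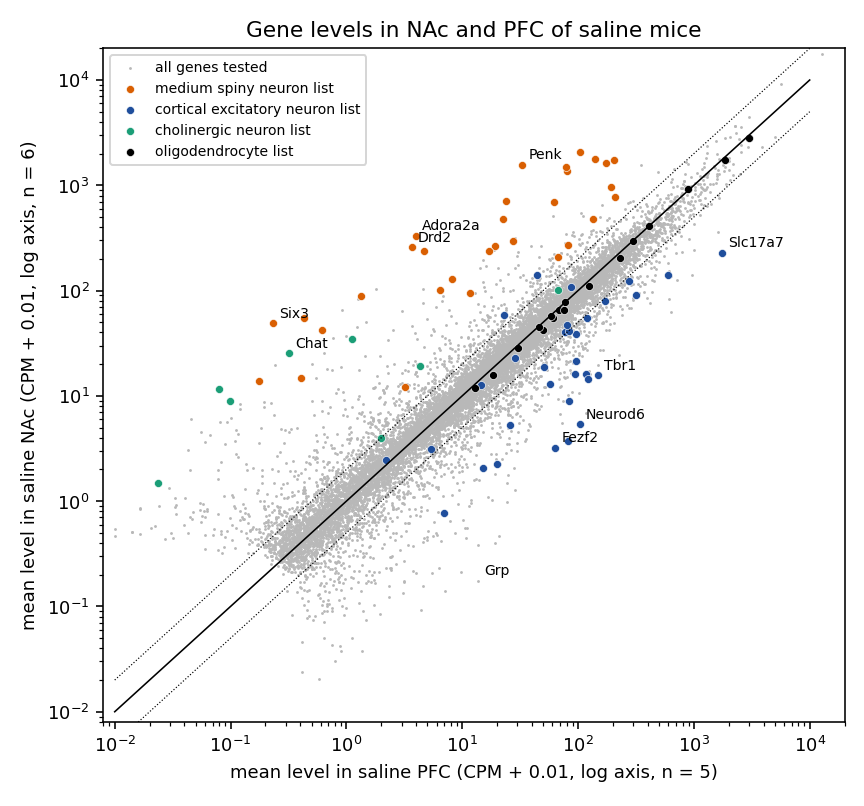
Mean level of each gene tested in the saline PFC (x axis, 5 libraries) and the saline NAc (y axis, 6 libraries), in CPM with 0.01 added so that genes at 0 can be drawn, on log axes. The solid line marks equal levels and the dotted lines a 2-fold difference. Medium spiny neuron genes lie above the upper dotted line, most cortical excitatory neuron genes lie below the lower one, and oligodendrocyte genes lie near the solid line.

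The largest excess in the NAc belonged to Six3, a homeobox transcription factor of the developing striatum (chr17:86012948-86031153 in mm9). Six3 lay between 41.9 and 55.9 CPM in the 6 NAc libraries (median 48.9) and at 0.274, 0.207, 0.192, 0.247 and 0.204 CPM in the 5 PFC libraries, and at 22.0 CPM in PFC library 4. Every NAc library was far above all 5 PFC libraries (log2 fold change 7.75 ± 0.13, adjusted p = 9.63e-14; SE after ±, NAc over PFC). Adora2a lay between 267 and 411 CPM in the 6 NAc libraries (median 314) and at 4.18, 3.23, 5.56, 3.60 and 3.26 CPM in the 5 PFC libraries. Adora2a, an adenosine receptor gene, showed an 84.3-fold difference (log2 fold change 6.40 ± 0.17, adjusted p = 7.49e-12). Drd2 ranged from 188 to 315 CPM in the NAc, with a median of 258, and was 3.96, 3.87, 3.77, 2.83 and 3.81 CPM in the PFC, a difference of 70.9-fold for this D2 dopamine receptor gene (log2 fold change 6.15 ± 0.16, adjusted p = 6.72e-12). Penk measured 32.3, 29.5, 47.5, 35.0 and 21.0 CPM in the PFC and 1134 to 1885 CPM in the NAc, where the median was 1555. Penk, the precursor of the enkephalins, was thus well detected in both regions and 47.3-fold higher in the NAc (log2 fold change 5.56 ± 0.21, adjusted p = 1.77e-10). Others of the 15 largest NAc excesses named by rule were, by log2 fold change, Sh3rf2 (7.04), Six3os1 (6.47), Isl1 (6.44), Chat (6.33), Slc35d3 (6.14), Serpina9 (6.11), Cd4 (6.07), Gpr6 (6.02), Lrrc10b (5.85) and Syndig1l (5.66). Among them Chat makes acetylcholine, Isl1 is a LIM-homeobox factor, Gpr6 is an orphan receptor of the indirect pathway, and Cd4 is better known as a T-cell surface protein. Six3 and Six3os1 overlap on opposite strands, and the sources used here do not state whether counting used strand, so their reads may be partly shared. In PFC library 4 all 15 genes lay between the other PFC libraries and the NAc.

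In the other direction, Grp, the precursor of gastrin-releasing peptide, showed the largest excess in the PFC. Grp had a median of 0.154 CPM over the NAc libraries (0.0485 to 0.265) and PFC levels of 13.8, 17.8, 12.0, 10.2 and 15.3 CPM (log2 fold change -6.42 ± 0.24, adjusted p = 1.34e-10). Neurod6 lay between 1.12 and 15.5 CPM in the 6 NAc libraries (median 3.49) and at 99.4, 102, 102, 97.3 and 115 CPM in the 5 PFC libraries. Neurod6 is a basic helix-loop-helix factor of pyramidal neurons, and its 19.8-fold PFC excess (log2 fold change -4.31 ± 0.51, adjusted p = 6.37e-06) came with a wide spread in the NAc, where library 6 was highest. Fezf2 ranged from 1.69 to 6.46 CPM in the NAc, with a median of 2.70, and was 61.7, 76.9, 58.4, 51.1 and 69.4 CPM in the PFC. The zinc-finger factor Fezf2, which specifies subcortically projecting neurons of deep layers, was 20.3-fold higher in the PFC (log2 fold change -4.34 ± 0.26, adjusted p = 7.95e-09). Other PFC genes of the rule were Trbc2 (-5.75), Hkdc1 (-5.48), Krt80 (-5.27), Adra1d (-4.69), Rxfp1 (-4.64), Rspo2 (-4.56), 9130024F11Rik (-4.42), Gm12824 (-4.36), Npr3 (-4.19), C1ql3 (-4.10) and Myl4 (-4.08). They include the alpha-1D adrenergic receptor (Adra1d), the relaxin receptor Rxfp1, the Wnt signalling activator Rspo2, the natriuretic peptide clearance receptor Npr3, the secreted synaptic protein C1ql3 and a constant segment of the T-cell receptor beta chain (Trbc2). The lincRNA 9130024F11Rik overlaps another gene on the opposite strand, which makes its count uncertain. In PFC library 4, 14 of the 15 PFC genes were lower than in any other PFC library, and 15 of 15 were above every NAc library.

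The promoters of 4 of these genes are shown as examples of transcription factors and of the receptor that names a pathway, chosen among the genes described above that the promoter table holds. Each sequence covers 250 bases before to 50 after the gene's start in RefSeq (build GRCm38.p6, not the mm9 of the counts), 5′ to 3′ on the gene's strand, with every CG dinucleotide in capitals.
Six3, chr17:85620584-85620883, plus strand: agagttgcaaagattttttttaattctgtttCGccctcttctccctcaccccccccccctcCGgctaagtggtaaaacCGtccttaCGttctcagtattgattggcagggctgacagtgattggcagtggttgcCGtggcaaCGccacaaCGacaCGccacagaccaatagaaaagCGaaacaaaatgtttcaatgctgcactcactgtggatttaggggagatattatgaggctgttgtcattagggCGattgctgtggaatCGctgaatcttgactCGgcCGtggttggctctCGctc
Drd2, chr9:49340153-49340452, plus strand: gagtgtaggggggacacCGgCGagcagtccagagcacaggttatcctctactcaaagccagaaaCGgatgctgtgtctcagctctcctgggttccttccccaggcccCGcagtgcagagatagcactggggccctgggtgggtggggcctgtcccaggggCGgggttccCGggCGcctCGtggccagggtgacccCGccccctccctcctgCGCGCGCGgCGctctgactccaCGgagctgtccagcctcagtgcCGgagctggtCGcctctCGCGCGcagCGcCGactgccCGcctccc
Neurod6, chr6:55681214-55681513, minus strand: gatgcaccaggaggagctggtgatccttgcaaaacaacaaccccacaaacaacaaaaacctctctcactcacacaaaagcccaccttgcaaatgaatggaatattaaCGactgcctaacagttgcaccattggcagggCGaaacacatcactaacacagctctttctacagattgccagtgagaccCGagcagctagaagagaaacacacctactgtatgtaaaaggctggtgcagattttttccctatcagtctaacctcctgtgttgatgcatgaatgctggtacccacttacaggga
Fezf2, chr14:12345816-12346115, minus strand: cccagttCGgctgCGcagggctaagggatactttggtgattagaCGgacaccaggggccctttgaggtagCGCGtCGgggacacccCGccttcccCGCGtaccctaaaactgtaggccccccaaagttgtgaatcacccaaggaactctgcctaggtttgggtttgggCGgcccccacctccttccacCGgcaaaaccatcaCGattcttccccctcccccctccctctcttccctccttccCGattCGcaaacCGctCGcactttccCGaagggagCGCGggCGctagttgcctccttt
They hold 14, 23, 3 and 20 CG dinucleotides in this order, so that a promoter rich and one poor in CG occur on the PFC side. The median was 14 in 587 promoters of genes at least 2-fold higher in the NAc, 15 in 663 of genes at least 2-fold higher in the PFC and 20 in 10740 of all genes tested, using 1 promoter a gene. Searched on both strands, TGACGTCA, the cyclic AMP response element, was in 1.53% of the NAc promoters, 1.96% of the PFC promoters, 3.17% of those tested and 1.88% of all 27025 in the table. CAGATG, an E-box that NeuroD-type factors can bind, was in 15.3%, 15.4%, 11.9% and 17.2% in the same order, and TATAAA in 9.37%, 9.65%, 7.16% and 14.2%. The homeodomain core TAATTA was in 3.41%, 4.07%, 2.60% and 5.31%. None of the 4 windows printed holds any of these motifs, which says only that these letters are not in them, and the shares are given without a test.

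All 31 medium spiny neuron genes tested were higher in the NAc, each by at least 2-fold and with no overlap between libraries (median log2 fold change 3.97, against 0.01 over all genes tested). Their summed level was 13351 to 22752 CPM in the NAc and 1576 to 1834 CPM in the PFC. The same 31 genes passed with PFC library 4, whose sum was 9018 CPM, and 31 passed without NAc library 6. Ppp1r1b measured 115, 114, 112, 96.2 and 84.7 CPM in the PFC and 1472 to 2751 CPM in the NAc, where the median was 1951. Its product DARPP-32 is the phosphoprotein through which dopamine and cAMP set phosphatase activity in these neurons (log2 fold change 4.31 ± 0.17, adjusted p = 2.83e-10). The signalling genes next to it on the list followed: Rgs9 (4.42), Pde10a (4.09), Gng7 (3.68), Rasd2 (3.50), Pde1b (3.24), Adcy5 (3.08) and Gnal (2.34), among them a regulator of G protein signalling, phosphodiesterases, a small G protein and parts of the pathway from receptor to cAMP. Smaller differences were those of transcription factors and a phosphatase that the cortex expresses too, namely Foxp1 (1.63), Bcl11b (1.74), Meis2 (1.84) and Ptpn5 (1.90). Bcl11b had a median of 274 CPM over the NAc libraries (224 to 333) and PFC levels of 75.4, 107, 76.4, 67.5 and 80.8 CPM, so that even for this gene, which also marks deep cortical layers, the groups did not overlap.

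Genes of both output pathways were higher in the NAc. Among the 8 direct-pathway genes, 7 passed the test. Drd1 lay between 189.8 and 313 CPM in the 6 NAc libraries (median 270.2) and at 18.6, 22.4, 18.9, 18.2 and 18.8 CPM in the 5 PFC libraries (log2 fold change 3.77 ± 0.13, adjusted p = 9.18e-11). Pdyn (prodynorphin) ranged from 256 to 331 CPM in the NAc, with a median of 308, and was 26.0, 27.9, 30.1, 25.6 and 26.8 CPM in the PFC (log2 fold change 3.45 ± 0.08, adjusted p = 1.85e-12). Tac1 (substance P precursor) measured 17.7, 17.9, 17.2, 16.3 and 16.1 CPM in the PFC and 192 to 269.6 CPM in the NAc, where the median was 246 (log2 fold change 3.80 ± 0.09, adjusted p = 1.85e-12). Per kb of exon the D1 and D2 receptor genes stood at 75.2 and 102 CPM in the NAc and at 5.49 and 1.43 CPM in the PFC, so that Drd1 was the more abundant of the pair in the PFC and Drd2 in the NAc. The muscarinic M4 receptor of direct-pathway neurons, Chrm4 (1.51), and the factor Ebf1 (1.91) differed less, and Sfxn1, a mitochondrial carrier, did not pass (log2 fold change 0.04 ± 0.05, adjusted p = 0.531). Of the 7 indirect-pathway genes tested, 6 were higher in the NAc. Besides Drd2, Adora2a, Penk and Gpr6 these were Sp9 (2.30) and Upb1 (6.02). The exception was the kainate receptor gene Grik3, which was higher in the PFC (log2 fold change -0.68 ± 0.10, adjusted p = 4.76e-05), and whose product is also made by cortical neurons. Upb1 was a low gene, with a mean of 6.20 CPM in the NAc and 0.0900 in the PFC.

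**Figure D2:**
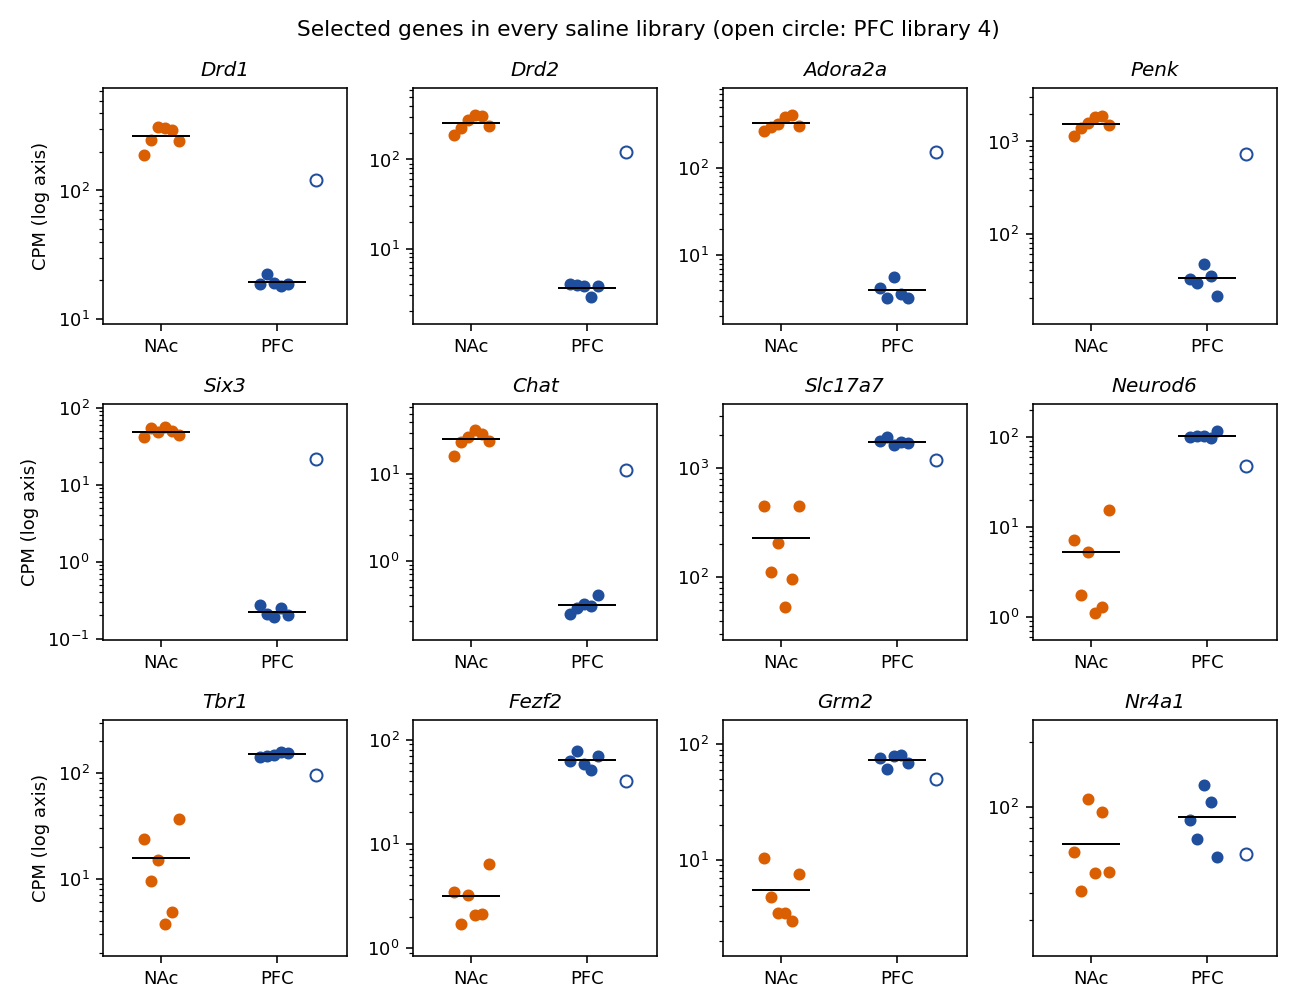
Levels of 12 genes in every saline library, in CPM on log axes, with each filled point 1 library, the bars the means of 6 NAc and 5 PFC libraries, and the open circle PFC library 4, which is outside the mean. Drd1, Drd2, Adora2a, Penk, Six3 and Chat are high in all NAc libraries, Slc17a7, Neurod6, Tbr1, Fezf2 and Grm2 in all PFC libraries, PFC library 4 lies between the groups for these 11 genes, and the groups overlap for Nr4a1.

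The genes of cholinergic neurons, which in the striatum are large interneurons, were all higher in the NAc (8 of 8 tested, 6 by at least 2-fold). Chat had a median of 25.4 CPM over the NAc libraries (16.3 to 32.3) and PFC levels of 0.244, 0.289, 0.320, 0.302 and 0.407 CPM (log2 fold change 6.33 ± 0.21, adjusted p = 9.09e-11). Slc5a7 (choline transporter) lay between 21.1 and 40.3 CPM in the 6 NAc libraries (median 36.9) and at 0.701, 0.889, 1.60, 0.741 and 1.66 CPM in the 5 PFC libraries (log2 fold change 4.99 ± 0.24, adjusted p = 9.44e-10). The LIM-homeobox factor Lhx8 (6.64) and the vesicular glutamate transporter VGLUT3 of these interneurons, Slc17a8 (2.17), showed the same direction. Smaller differences were found for acetylcholinesterase, Ache (0.59), and the p75 receptor Ngfr (1.00), for which the libraries of the regions overlapped. Chat overlaps a lincRNA on the opposite strand, so a part of its count may belong there.

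GABA-related genes went both ways. Of 19 genes for GABA synthesis and interneuron types, 8 were higher in the NAc and 3 in the PFC, beside 25.4% and 26.0% of all genes tested. Gad2 (GABA-synthesizing enzyme) ranged from 559 to 729.8 CPM in the NAc, with a median of 666, and was 150.4, 154, 164, 174 and 160.4 CPM in the PFC (log2 fold change 2.00 ± 0.08, adjusted p = 1.87e-10). The vesicular GABA transporter Slc32a1 (1.89) was higher in the NAc as well, and the second synthesizing enzyme Gad1 (0.87) less so. Among interneuron types, Vip measured 35.2, 28.3, 34.8, 38.8 and 35.6 CPM in the PFC and 1.12 to 8.10 CPM in the NAc, where the median was 2.42 (log2 fold change -3.25 ± 0.37, adjusted p = 4.57e-06), and NAc libraries 1 and 6 held the most of this peptide gene in the NAc. Parvalbumin, Pvalb (-1.71), and the serotonin-gated channel Htr3a (-1.45) were also higher in the PFC. Genes of somatostatin and neuropeptide Y neurons, which occur in both regions, did not pass the test: Sst (log2 fold change 0.08, adjusted p = 0.573) and Npy (log2 fold change -0.04, adjusted p = 0.794). The levels of Sst were 205 to 309 CPM in the NAc and 272, 264, 212, 211 and 212 CPM in the PFC. In the NAc, Nos1 (0.60), Lhx6 (0.45), Nkx2-1 (5.29) and Th (1.40) were higher, the last being tyrosine hydroxylase, the first enzyme of dopamine synthesis.

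Genes of cortical excitatory neurons were mostly higher in the PFC: 27 of 32 tested members passed in this direction, 23 of them by at least 2-fold, and 3 passed in the NAc direction (median log2 fold change -1.96). Their summed level was 4825 to 4960.5 CPM in the PFC and 1100.2 to 1768 CPM in the NAc, and 3515 CPM in PFC library 4. The PFC count was 27 with PFC library 4 and 27 without NAc library 6. Slc17a7 had a median of 159 CPM over the NAc libraries (53.3 to 452) and PFC levels of 1774, 1932, 1635, 1722 and 1701 CPM. Slc17a7 encodes VGLUT1, the vesicular glutamate transporter of cortical pyramidal neurons, and its 7.68-fold difference (log2 fold change -2.94 ± 0.46, adjusted p = 0.000104) stood beside NAc levels in libraries 1 and 6 of 452 and 451 CPM, above the other 4. Tbr1 lay between 3.74 and 36.7 CPM in the 6 NAc libraries (median 12.4) and at 143, 145, 148, 159 and 155 CPM in the 5 PFC libraries (log2 fold change -3.27 ± 0.45, adjusted p = 2.6e-05). Tbr1, a T-box factor of deep-layer neurons, was again highest within the NAc in libraries 6 and 1. The neuronal factors Neurod1 (-3.22), Neurod2 (-3.24), Emx1 (-2.89) and Bhlhe22 (-3.19) and the vesicular zinc transporter Slc30a3 (-2.86) were all higher in the PFC. Within the NAc the median share of the list varied from 24.5% of the PFC mean in library 4 to 34.5% in library 6, and whether this reflects tissue next to the NAc was not tested.

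The layer genes did not all follow. Of 11 upper-layer genes, 4 were higher in the PFC, among them Cux2 (-1.30), Lmo4 (-1.15) and Rasgrf2 (-1.08), and 4 were higher in the NAc, namely Mdga1 (1.83), Calb1 (1.46), Otof (1.32) and Cux1 (0.81). Of these, Calb1 encodes calbindin, a calcium-binding protein that medium spiny neurons also contain. Calb1 ranged from 152 to 288 CPM in the NAc, with a median of 235, and was 73.1, 85.0, 84.0, 83.1 and 78.5 CPM in the PFC (log2 fold change 1.46 ± 0.15, adjusted p = 1.86e-06). Of 13 deep-layer genes, 10 were higher in the PFC. After Fezf2 and Tbr1, the differences were largest for Cplx3 (-2.28), Ccn2 (-2.17), Rprm (-2.14) and Deptor (-1.41), where Cplx3 and Ccn2 mark the deepest layer. Syt6, a synaptotagmin of corticothalamic neurons, went the other way (log2 fold change 1.66 ± 0.11, adjusted p = 2.63e-08), with 109 to 162 CPM in the NAc and 38.4, 54.4, 40.5, 41.4 and 47.1 CPM in the PFC, and so did the corepressor Tle4 (0.32), for which the groups overlapped.

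Transcription factors of the embryonic subpallium and pallium divided along the same line. Of 22 subpallial factors tested, 17 were higher in the NAc and 1 in the PFC. With PFC library 4 included, 0 were higher in the PFC. Of 23 pallial factors, 19 were higher in the PFC and 3 in the NAc. These lists share members with the marker lists above. Among subpallial factors not yet given, Zfp503 (3.60), Dlx6 (3.11), Meis1 (2.83), Dlx5 (2.43) and Foxp2 (1.96) were higher in the NAc. Dlx6 measured 4.18, 3.43, 4.38, 4.20 and 4.01 CPM in the PFC and 27.2 to 40.8 CPM in the NAc, where the median was 36.3 (log2 fold change 3.11 ± 0.12, adjusted p = 1.78e-10). The related Dlx1 (log2 fold change -0.18, adjusted p = 0.525) and Dlx2 (log2 fold change 0.39, adjusted p = 0.0949) did not pass, with overlapping libraries. Dlx1 passed towards the PFC without NAc library 1 (adjusted p = 0.027) and Dlx2 towards the NAc without NAc library 5 (adjusted p = 0.0101). Dlx genes are used by GABAergic neurons of both regions. Among pallial factors, Satb1 (-2.50), Nr2f1 (-2.09), Mef2c (-2.08), Zbtb18 (-1.83) and Sox5 (-1.40) were higher in the PFC, Nr2f1 being COUP-TFI, a patterning factor of the cortex, and Mef2c an activity-dependent factor. Mef2c had a median of 132 CPM over the NAc libraries (129 to 169) and PFC levels of 539, 522, 606, 685 and 637 CPM (log2 fold change -2.08 ± 0.09, adjusted p = 4.78e-10). The factors Cux1 (0.81) and Tle4 (0.32) were higher in the NAc, and Pax6 did not pass (log2 fold change -0.11 ± 0.15, adjusted p = 0.56).

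Retinoid signalling genes were among the groups that favoured the NAc, with 11 of 17 tested members higher there and 4 higher in the PFC (median log2 fold change 0.51). Retinoic acid, made from vitamin A, acts through RAR and RXR nuclear receptors. Rarb lay between 103 and 150.0 CPM in the 6 NAc libraries (median 132) and at 7.32, 8.87, 9.71, 8.04 and 7.18 CPM in the 5 PFC libraries (log2 fold change 3.97 ± 0.12, adjusted p = 1.51e-11). Rxrg ranged from 84.1 to 119.8 CPM in the NAc, with a median of 101, and was 6.77, 9.62, 5.59, 4.64 and 5.73 CPM in the PFC (log2 fold change 3.96 ± 0.17, adjusted p = 5.39e-10). The 2 receptor genes thus differed by 15.7 and 15.6-fold, while the other receptors differed less, with Rarg (0.63), Rxra (0.37) and Rxrb (0.21) on the NAc side and Rara (-0.92) on the PFC side. The retinoid-binding proteins Crabp1 (5.29) and Crabp2 (1.36) and the retinol receptor Stra6 (1.11) were higher in the NAc. Aldh1a3 (-3.18) and Aldh1a2 (-1.67), which encode enzymes that make retinoic acid, were higher in the PFC. The related Aldh1a1 is not reported here, so these values do not cover every such enzyme. Aldh1a3 measured 3.93, 3.66, 2.20, 3.18 and 3.95 CPM in the PFC and 0.185 to 0.860 CPM in the NAc, where the median was 0.316 (log2 fold change -3.18 ± 0.30, adjusted p = 6.76e-07). Aldh1a2 is also a meningeal gene, and meningeal genes were higher in some PFC libraries, as given below.

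For dopamine, 6 of 13 tested members were higher in the NAc and 3 in the PFC (median log2 fold change 0.40), beside 25.4% and 26.0% of all genes tested. Drd3 had a median of 4.39 CPM over the NAc libraries (3.26 to 5.85) and PFC levels of 0, 0.103, 0.0959, 0 and 0.0291 CPM. This D3 receptor gene was low in the whole punch and near the limit of detection in the PFC (log2 fold change 6.45 ± 0.38, adjusted p = 6.5e-09), and its libraries did not overlap. Drd4 and Drd5 did not pass: Drd4 (log2 fold change -0.38, adjusted p = 0.359) and Drd5 (log2 fold change -0.25, adjusted p = 0.292). Drd5 lay between 2.99 and 4.92 CPM in the 6 NAc libraries (median 3.99) and at 5.79, 6.58, 3.07, 3.73 and 3.87 CPM in the 5 PFC libraries. Th, which cortical and striatal neurons make in small numbers and dopamine neurons in bulk, was 15.3 ± 3.01 CPM (SD, n = 6) in the NAc and 5.81 ± 0.698 CPM (SD, n = 5) in the PFC (log2 fold change 1.40 ± 0.14, adjusted p = 1.47e-06). The dopamine transporter and the vesicular monoamine transporter, which mark midbrain dopamine neurons, did not pass: Slc6a3 (log2 fold change 0.40, adjusted p = 0.183) and Slc18a2 (log2 fold change 0.67, adjusted p = 0.0533). In the same list Ddc (0.68) was higher in the NAc and Maob (-0.26) in the PFC, both by less than 2-fold.

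Enzymes that make, break down and read cyclic AMP were divided between the regions by isoform, with 16 of 35 higher in the NAc (10 by at least 2-fold) and 12 higher in the PFC (5 by at least 2-fold). Adcy5 ranged from 1369 to 2113 CPM in the NAc, with a median of 1677, and was 212, 233, 187, 189 and 202 CPM in the PFC (log2 fold change 3.08 ± 0.12, adjusted p = 1.81e-10). Adcy1 measured 1557, 1395, 1753, 1793 and 1634 CPM in the PFC and 252 to 434 CPM in the NAc, where the median was 351 (log2 fold change -2.19 ± 0.12, adjusted p = 4.52e-09). Adcy5 is the adenylyl cyclase of striatal dopamine signalling, Adcy1 a calcium-stimulated cyclase of the cortex, and the pair ran in opposite directions. Adcy8 (-1.78), Adcy2 (-1.31) and Adcy6 (-1.10) sided with Adcy1, and Adcy3 (log2 fold change 0.19, adjusted p = 0.0509) did not pass. Among phosphodiesterases, Pde10a (4.09), Pde7b (3.70), Pde1b (3.24), Pde1c (2.48), Pde3a (1.69) and Pde8b (1.09) were higher in the NAc and Pde1a (-1.52), Pde4a (-0.59) and Pde4d (-0.33) in the PFC. Pde10a had a median of 1384 CPM over the NAc libraries (848 to 1807) and PFC levels of 71.9, 89.5, 84.7, 83.8 and 73.8 CPM (log2 fold change 4.09 ± 0.19, adjusted p = 6.69e-10). Pde1a and Pde1b, which calcium and calmodulin activate, thus had opposite regional signs. Of the regulatory subunits of protein kinase A, Prkar2b (1.27) was higher in the NAc and Prkar1b (-0.96) in the PFC, and the phosphatase-regulating Arpp21 (2.14) and Arpp19 (0.88) followed Ppp1r1b.

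Heterotrimeric G proteins showed an exchange of isoforms. Gnal lay between 756 and 1087 CPM in the 6 NAc libraries (median 992) and at 179.7, 212, 180.1, 197 and 189.7 CPM in the 5 PFC libraries (log2 fold change 2.34 ± 0.09, adjusted p = 2.83e-10), and Gnas ranged from 522 to 925 CPM in the NAc, with a median of 632, and was 1529, 1426, 1377, 1341 and 1342 CPM in the PFC (log2 fold change -1.09 ± 0.13, adjusted p = 7.31e-06). Gnal encodes the olfactory-type stimulatory alpha subunit that couples D1 and adenosine receptors to cyclase in the striatum, and Gnas the general one. The gamma subunits ran likewise, with Gng7 (3.68) in the NAc and Gng2 (-1.74) and Gng3 (-0.79) in the PFC. In the whole list of subunits and RGS proteins, which shorten G protein signals, 14 of 36 tested members were higher in the NAc and 12 in the PFC (median log2 fold change 0.04). Rgs8 (1.62), Rgs2 (1.49), Rgs10 (1.47) and Rgs14 (1.24) and Rgs9 were higher in the NAc, and Rgs6 (-1.33) and Rgs7 (-0.66) in the PFC. Rgs4 did not pass (log2 fold change 0.36 ± 0.19, adjusted p = 0.128) except without NAc library 1 (adjusted p = 0.0284). The Rgs9 partner Gnb5 (1.00) was higher in the NAc.

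Neuropeptide precursors were highly regional in both directions. Of 24 tested, 10 were higher in the NAc and 9 in the PFC, 7 and 7 of them by at least 2-fold. Besides Penk, Pdyn and Tac1, the NAc had more Nts (4.77), Cartpt (3.13), Trh (1.63) and Scg2 (1.40), encoding neurotensin, the CART peptides, thyrotropin-releasing hormone and secretogranin 2. Nts measured 0.488, 0.434, 0.927, 0.769 and 0.756 CPM in the PFC and 11.9 to 24.1 CPM in the NAc, where the median was 18.3 (log2 fold change 4.77 ± 0.22, adjusted p = 7e-10). Cartpt had a median of 15.6 CPM over the NAc libraries (13.7 to 30.3) and PFC levels of 2.38, 1.90, 2.68, 1.70 and 2.44 CPM (log2 fold change 3.13 ± 0.23, adjusted p = 6.5e-08). Within the NAc, libraries 1 and 2 had the most Cartpt, at 30.3 and 24.8 CPM. The PFC had more Grp (-6.42), Adcyap1 (-3.28), Vip (-3.25), Cck (-3.20), Cort (-2.12), Nppc (-1.77) and Pnoc (-1.62), encoding gastrin-releasing peptide, PACAP, vasoactive intestinal peptide, cholecystokinin, cortistatin, C-type natriuretic peptide and nociceptin. Cck lay between 6.46 and 65.3 CPM in the 6 NAc libraries (median 13.3) and at 275, 214, 244, 209 and 183 CPM in the 5 PFC libraries (log2 fold change -3.20 ± 0.51, adjusted p = 0.000121). Adcyap1 ranged from 0.825 to 4.34 CPM in the NAc, with a median of 2.17, and was 24.8, 22.3, 19.0, 19.5 and 20.3 CPM in the PFC (log2 fold change -3.28 ± 0.31, adjusted p = 8.3e-07). Receptors were divided as evenly: 10 of 28 tested members were higher in the NAc and 11 in the PFC (median log2 fold change 0.08). Opioid receptors were higher in the NAc for Oprk1 (2.70) and Oprm1 (1.78), the kappa and mu receptors, while Oprd1 (log2 fold change 0.00, adjusted p = 0.995), the delta receptor, did not pass. Oprk1 measured 7.90, 6.45, 6.71, 7.41 and 7.71 CPM in the PFC and 30.3 to 55.1 CPM in the NAc, where the median was 48.6 (log2 fold change 2.70 ± 0.14, adjusted p = 1.6e-09). The tachykinin receptors Tacr1 (4.05) and Tacr3 (3.90) were higher in the NAc, as was Tac1, whose product substance P acts on the first of them. All 4 somatostatin receptors of the list were higher in the PFC, Sstr3 (-2.31), Sstr1 (-2.26), Sstr2 (-1.59) and Sstr4 (-1.39), while the ligand gene Sst did not pass. The cholecystokinin receptor Cckbr (-2.54) was higher in the PFC together with Cck, whereas the neurotensin receptor Ntsr1 (-2.18), a deep-layer gene, was higher in the PFC and its ligand gene Nts in the NAc.

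Glutamate receptors that form channels differed little for the main subunits. 12 of 27 tested members were higher in the NAc and 10 in the PFC (median log2 fold change -0.10). The obligatory NMDA subunit and a main AMPA subunit did not pass: Grin1 (log2 fold change -0.10, adjusted p = 0.257) and Gria2 (log2 fold change 0.11, adjusted p = 0.427), and neither did the NMDA subunit Grin2b (log2 fold change -0.19 ± 0.22, adjusted p = 0.477). The subunits Grin2a (-0.82), Gria3 (-0.62), Grin3a (-0.66) and Gria4 (-0.47) were higher in the PFC and Gria1 (0.42) in the NAc, all by less than 2-fold. Kainate receptor subunits were divided, with Grik1 (-1.56), Grik4 (-0.92) and Grik3 (-0.68) in the PFC and Grik2 (1.31) in the NAc. Auxiliary subunits differed more, namely Cacng4 (2.08), Cacng5 (1.03), Neto1 (1.02) and Neto2 (1.01) in the NAc and Cnih3 (-1.77) in the PFC. Cacng4 (AMPA receptor auxiliary protein) had a median of 131 CPM over the NAc libraries (113 to 158) and PFC levels of 34.2, 33.9, 29.4, 30.1 and 31.3 CPM (log2 fold change 2.08 ± 0.10, adjusted p = 7.35e-10). Of 10 metabotropic receptor and Homer genes, 6 were higher in the NAc and 3 in the PFC. Grm2 lay between 2.97 and 10.5 CPM in the 6 NAc libraries (median 4.14) and at 75.7, 61.0, 80.0, 81.1 and 68.5 CPM in the 5 PFC libraries. Grm2, a presynaptic inhibitory receptor, was 13.5-fold higher in the PFC (log2 fold change -3.75 ± 0.27, adjusted p = 4.48e-08), with NAc libraries 1 and 6 highest within the NAc. Grm8 (-2.73) shared this direction. Grm4 (2.14) and Grm5 (1.03) were higher in the NAc, Grm5 being the postsynaptic mGluR5. Grm5 ranged from 232 to 353 CPM in the NAc, with a median of 306, and was 134, 169, 135, 149.9 and 157 CPM in the PFC (log2 fold change 1.03 ± 0.10, adjusted p = 1.63e-06). The scaffold Homer2 (-1.69) was higher in the PFC.

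GABA receptor genes differed in level in both directions, 9 of 16 being higher in the NAc and 6 in the PFC. By at least 2-fold these counts were 3 and 3. In the NAc Gabrd (1.42), Gabra4 (0.81), Gabrg1 (0.85) and Gabra2 (0.63) were higher, among them the delta subunit of extrasynaptic receptors. In the PFC Gabra3 (-1.46), Gabra5 (-0.90) and Gabrb2 (-0.53) were higher. Gabrd measured 58.4, 51.4, 70.2, 58.9 and 49.8 CPM in the PFC and 113 to 178 CPM in the NAc, where the median was 163 (log2 fold change 1.42 ± 0.12, adjusted p = 3.84e-07). For the GABA-B receptor, a dimer, Gabbr2 had a median of 134 CPM over the NAc libraries (119 to 170.1) and PFC levels of 439, 479, 442, 490.3 and 456 CPM (log2 fold change -1.72 ± 0.09, adjusted p = 3.24e-09), whereas the partner subunit Gabbr1 (0.26) was slightly higher in the NAc.

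Serotonin receptors were divided as well, with 5 of 12 higher in the NAc and 4 in the PFC. The NAc had more Htr1d (4.74), Htr1b (2.64), Htr2c (2.55), Htr4 (2.33) and Htr6 (0.87) and the PFC more Htr3a (-1.45), Htr5a (-0.99) and Htr1a (-0.98). Htr2c lay between 94.9 and 137 CPM in the 6 NAc libraries (median 113) and at 15.7, 23.6, 16.4, 18.4 and 23.5 CPM in the 5 PFC libraries (log2 fold change 2.55 ± 0.13, adjusted p = 1.85e-09). Htr1d ranged from 12.2 to 17.5 CPM in the NAc, with a median of 15.5, and was 0.579, 0.786, 0.320, 0.439 and 0.582 CPM in the PFC (log2 fold change 4.74 ± 0.18, adjusted p = 1.4e-10). The 5-HT2A receptor gene, Htr2a (log2 fold change -0.04, adjusted p = 0.822), did not pass and had overlapping libraries, with 11.6 to 22.2 CPM in the NAc and 19.1, 16.2, 16.7, 20.5 and 19.0 CPM in the PFC. For acetylcholine, 4 of 15 tested members were higher in the NAc and 7 in the PFC (median log2 fold change -0.36). Of the muscarinic receptors, the Gi-coupled Chrm4 (1.51) was higher in the NAc and the Gq-coupled Chrm3 (-2.57) in the PFC, while the M1 gene, Chrm1 (log2 fold change -0.14, adjusted p = 0.0503), did not pass. The M2 gene Chrm2 (-0.73) and the low Chrm5 (3.27) complete the family, so that each coupling class had a gene on each side. Among nicotinic subunits, Chrna5 measured 6.01, 5.64, 5.91, 6.92 and 8.23 CPM in the PFC and 0.208 to 0.630 CPM in the NAc, where the median was 0.418 (log2 fold change -3.98 ± 0.21, adjusted p = 2.08e-09), and Chrnb3 (-3.53) and Chrna4 (-1.62) were also higher in the PFC. The beta 2 subunit gene did not pass (log2 fold change -0.07 ± 0.06, adjusted p = 0.31). Adora2a stood out within the adenosine and cannabinoid genes, of which 3 of 13 were higher in the NAc and 7 in the PFC. The A1 receptor Adora1 (-0.55) and the CB1 receptor Cnr1 (-0.60) were higher in the PFC, and so were enzymes that make or break down endocannabinoids, Faah (-1.87), Napepld (-1.64), Daglb (-0.60), Mgll (-0.48) and Dagla (-0.41). The ectoenzyme Nt5e (2.95), which makes adenosine, was higher in the NAc.

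**Figure D3:**
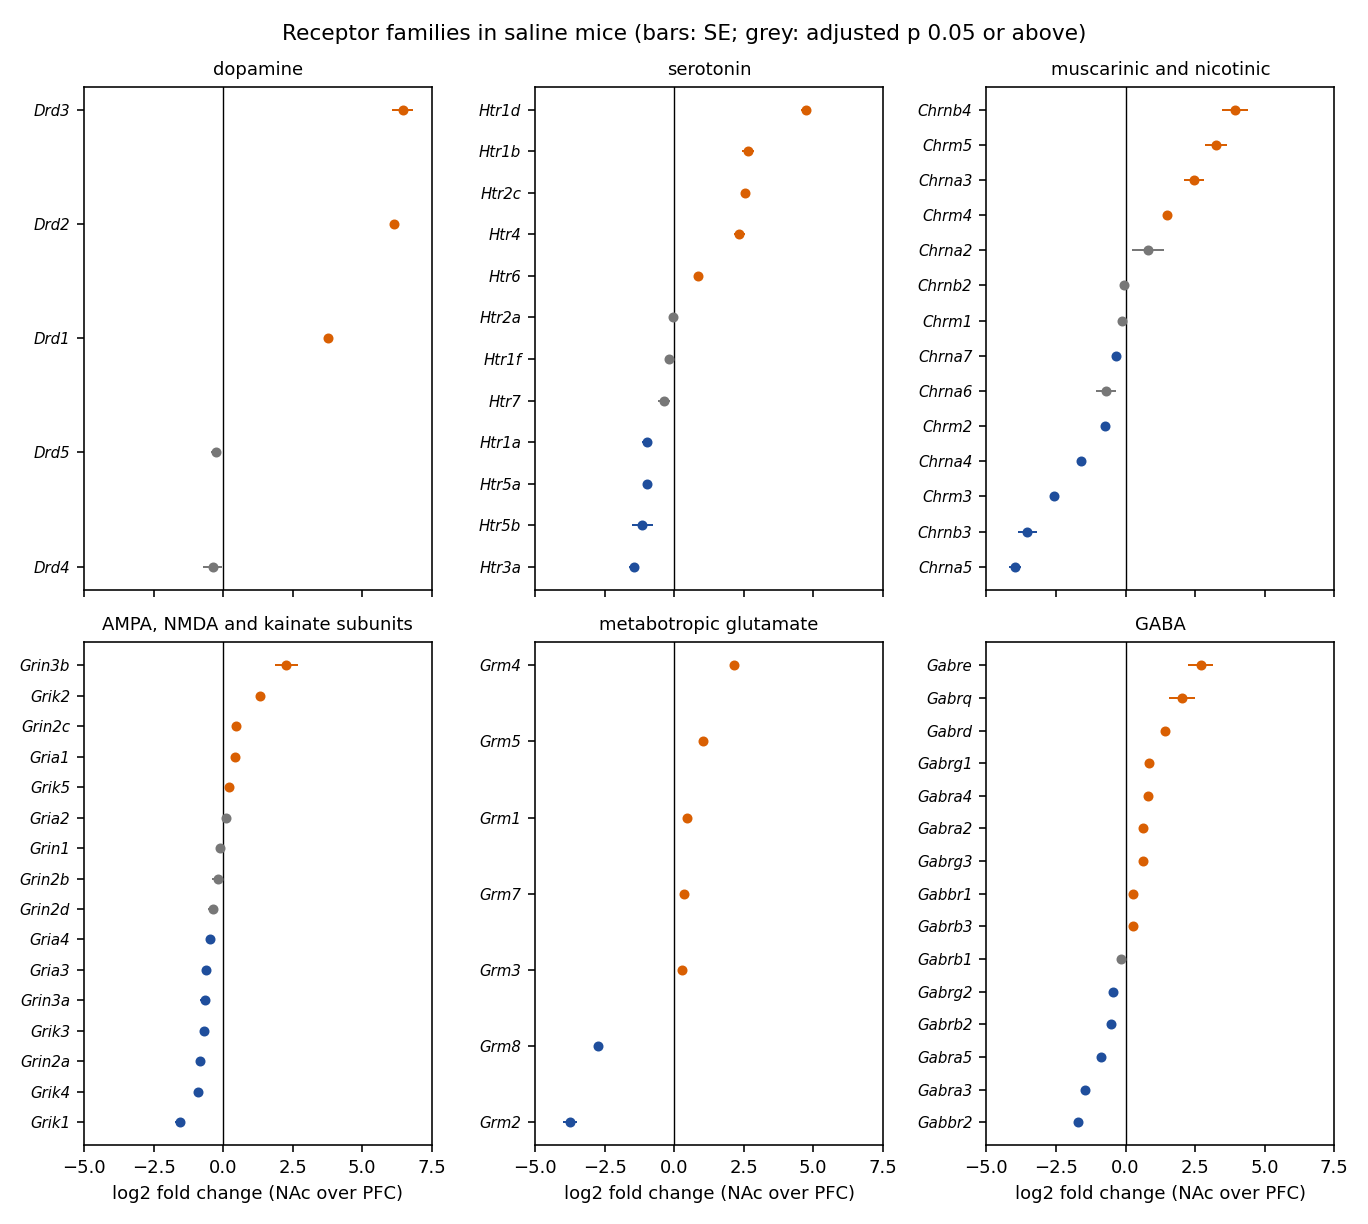
Log2 fold change of the NAc over the PFC for the tested genes of 6 receptor families, with bars for the SE. Orange points are higher in the NAc and blue points in the PFC at an adjusted p under 0.05, and grey points did not pass. Each family has genes on both sides of 0, and the 2 dopamine receptor genes to the left of 0 did not pass.

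Ion channel genes leaned to the PFC for potassium channels. Of 37 voltage-gated potassium channel genes, 20 were higher in the PFC and 12 in the NAc. Of 21 inward rectifier, two-pore and HCN genes, 11 were higher in the PFC and 4 in the NAc. The PFC had more of Kcnc4 (-2.26), Kcnh7 (-2.00), Kcnc2 (-1.94), Kcns3 (-1.86) and Kcna6 (-1.17), of which the Kcnc genes serve fast firing. The NAc had more of Kcna5 (3.61), Kcnip2 (2.00), Kcna4 (1.84), Kcnab1 (1.83), Kcnh4 (1.62) and Kcnd2 (1.02), of which Kcna4 and Kcnd2 carry fast inactivating A-type current and Kcnip2 is a Kv4 partner. Kcnip2 had a median of 356 CPM over the NAc libraries (305 to 421) and PFC levels of 97.2, 83.4, 94.6, 93.2 and 86.5 CPM (log2 fold change 2.00 ± 0.09, adjusted p = 4.7e-10). Kcnc2 lay between 15.2 and 41.0 CPM in the 6 NAc libraries (median 30.3) and at 103, 105, 109, 125 and 107 CPM in the 5 PFC libraries (log2 fold change -1.94 ± 0.21, adjusted p = 3.1e-06). The G protein-gated inward rectifiers were all higher in the PFC, Kcnj6 (-3.06), Kcnj3 (-2.02) and Kcnj9 (-1.94), and the strong rectifiers Kcnj2 (1.87) and Kcnj4 (0.72) in the NAc. Kcnj3 ranged from 17.9 to 39.1 CPM in the NAc, with a median of 30.2, and was 109.9, 111, 120.1, 132 and 106 CPM in the PFC (log2 fold change -2.02 ± 0.15, adjusted p = 9.33e-08). Kcnj2 measured 13.7, 11.1, 16.6, 14.5 and 17.4 CPM in the PFC and 35.3 to 69.8 CPM in the NAc, where the median was 53.4 (log2 fold change 1.87 ± 0.16, adjusted p = 3.51e-07). Of 23 sodium and calcium channel genes, 11 were higher in the NAc and 8 in the PFC. Scn4b (sodium channel beta subunit) had a median of 1447 CPM over the NAc libraries (846 to 2112) and PFC levels of 80.5, 54.9, 118, 99.7 and 41.7 CPM (log2 fold change 4.24 ± 0.31, adjusted p = 6.38e-08). The main sodium channel subunits Scn2a (-0.48), Scn8a (-0.43) and Scn1a (-0.40) were higher in the PFC by less than 2-fold. Cacna2d3 (1.80), Cacna2d2 (1.74) and Cacna1h (1.05) were higher in the NAc and the T-type channel gene Cacna1g (-1.86) in the PFC.

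Activity-regulated genes, which neurons switch on when they fire, were higher in the PFC in 10 of 23 cases and in the NAc in 2. Over all genes tested these shares were 26.0% and 25.4%. The other 11 passed in neither direction, where 51.4% of all genes passed in 1 or the other. With the library number as a block, 5 were higher in the NAc. Bdnf (brain-derived neurotrophic factor) lay between 0.847 and 4.91 CPM in the 6 NAc libraries (median 2.13) and at 25.9, 17.8, 22.5, 21.2 and 23.1 CPM in the 5 PFC libraries (log2 fold change -3.18 ± 0.35, adjusted p = 3.59e-06). Nr4a3 ranged from 10.4 to 22.1 CPM in the NAc, with a median of 14.4, and was 32.8, 37.1, 42.9, 29.2 and 40.9 CPM in the PFC (log2 fold change -1.26 ± 0.17, adjusted p = 2.67e-05). Ier2 (-1.63), Fos (-1.12), Dusp6 (-0.91), Arc (-0.88) and Jun (-0.75) were also higher in the PFC, although the libraries of Fos and Arc overlapped. Arc measured 135, 88.0, 253, 185 and 71.2 CPM in the PFC and 37.4 to 127 CPM in the NAc, where the median was 79.8. Its call (adjusted p = 0.0436) was lost with PFC library 4 (adjusted p = 0.0917) and, for 7 of 11 libraries, without that library (adjusted p between 0.0574 and 0.145), and that of Fos without PFC library 3 (adjusted p = 0.0582). The orphan nuclear receptor Nr4a1 is the gene the study followed. Nr4a1 had a median of 56.1 CPM over the NAc libraries (40.8 to 109) and PFC levels of 87.4, 70.8, 127, 105 and 58.5 CPM. The regions overlapped and the test was not passed (log2 fold change -0.41 ± 0.26, adjusted p = 0.2). It was passed without NAc library 3, which had the highest NAc level (log2 fold change -0.61, adjusted p = 0.0463), and with the library number as a block (log2 fold change -0.38, adjusted p = 0.00592). The related Nr4a2 and the immediate-early genes Egr1 and Npas4 did not pass: Nr4a2 (log2 fold change -0.16, adjusted p = 0.819), Egr1 (log2 fold change -0.23, adjusted p = 0.322) and Npas4 (log2 fold change -0.15, adjusted p = 0.489). Of these Egr1 passed with the block (adjusted p = 0.0105). A p that misses the threshold does not show that these levels were equal. Of 10 listed genes among those the study followed, 4 were higher in the NAc, Cartpt (3.13), Raver2 (0.78), Kirrel2 (0.50) and Per2 (0.28), and 1 in the PFC, Nr4a3 (-1.26). Only Cartpt and Nr4a3 passed by at least 2-fold. The study drew such genes mainly from cocaine against saline in the NAc, not from region. Cbl, Per2 and Cartpt were also taken as known Nr4a1 targets. With PFC library 4, the NAc count was 2, since Kirrel2 and Per2 did not pass (adjusted p = 0.179 and 0.411), and 2 to 5 passed when 1 library was left out.

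Surface and matrix genes gave smaller contrasts. Of 15 perineuronal net and matrix genes, 5 were higher in the NAc and 2 in the PFC, beside 25.4% and 26.0% of all genes tested. Hapln4 lay between 15.03 and 46.0 CPM in the 6 NAc libraries (median 33.8) and at 132, 93.4, 163, 137 and 96.9 CPM in the 5 PFC libraries (log2 fold change -1.92 ± 0.24, adjusted p = 1.27e-05). Hapln4 links hyaluronan to proteoglycans in nets around fast-firing neurons, and aggrecan, a main net component, did not pass (log2 fold change -0.25 ± 0.15, adjusted p = 0.17). The hyaluronan synthases Has1 (2.30) and Has3 (1.74) were higher in the NAc. Of 17 classical cadherins, 5 were higher in the NAc and 9 in the PFC, with Cdh15 (1.28) and Cdh4 (1.16) and Cdh12 (-1.39) and Cdh18 (-1.23) past 2-fold. Cdh4 ranged from 51.2 to 66.0 CPM in the NAc, with a median of 61.0, and was 27.6, 35.1, 21.8, 26.5 and 23.8 CPM in the PFC (log2 fold change 1.16 ± 0.11, adjusted p = 8.02e-07).

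Genes common to neurons were higher in the PFC, 16 of 20 passing in this direction and 0 in the other. Snap25 (SNARE protein of synaptic vesicle release) measured 2421, 2013, 2825, 2856 and 2449 CPM in the PFC and 1094 to 1514 CPM in the NAc, where the median was 1244 (log2 fold change -0.99 ± 0.10, adjusted p = 1.57e-06). Stx1a (-2.48), Elavl4 (-2.14), Stmn2 (-1.53) and Syn1 (-1.21) differed most, while the nuclear marker NeuN, Rbfox3 (log2 fold change 0.07, adjusted p = 0.439), and Elavl3 (log2 fold change -0.01, adjusted p = 0.825) and Eno2 (log2 fold change 0.11, adjusted p = 0.109) did not pass. The summed level of the list was 9424 to 10737 CPM in the NAc and 15282 to 16333 CPM in the PFC. It moved in the same direction as the cortical excitatory genes and against the medium spiny neuron genes, and its part in either was not tested.

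Oligodendrocyte and vascular genes hardly differed. Oligodendrocyte genes had 0 of 17 higher in the NAc and 0 in the PFC, and endothelial and mural genes 0 of 13 higher in the NAc and 0 in the PFC, where 51.4% of all genes passed. Mbp (myelin basic protein) had a median of 2922 CPM over the NAc libraries (2552 to 3066) and PFC levels of 3051, 1845, 2869, 3044 and 4067 CPM (log2 fold change -0.07 ± 0.14, adjusted p = 0.704). The summed oligodendrocyte level was 6501 to 7594 CPM in the NAc and 4351 to 10454 CPM in the PFC, so that PFC libraries were the more uneven. Oligodendrocyte precursor genes had 0 of 10 higher in the NAc and 1 in the PFC. Astrocyte genes had 3 of 15 higher in the NAc and 4 in the PFC. The transporter gene Slc1a2 (log2 fold change -0.10, adjusted p = 0.331) did not pass, whereas Slc4a4 (1.11), a bicarbonate transporter, was higher in the NAc and the intermediate filament gene Gfap (-1.43) in the PFC. Gfap lay between 24.4 and 84.4 CPM in the 6 NAc libraries (median 35.5) and at 120.1, 71.2, 101, 103 and 166 CPM in the 5 PFC libraries, and the groups overlapped, NAc library 1 lying within the PFC range. Microglial genes showed small and even differences, 11 of 15 higher in the NAc and 0 in the PFC, none by 2-fold (median log2 fold change 0.24). Cx3cr1 (fractalkine receptor) ranged from 67.7 to 76.6 CPM in the NAc, with a median of 71.9, and was 61.4, 59.9, 56.3, 54.0 and 61.7 CPM in the PFC (log2 fold change 0.30 ± 0.05, adjusted p = 0.00023). The summed microglial level was 657 to 768 CPM in the NAc and 598 to 663 CPM in the PFC.

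Genes of meningeal, choroid plexus and ependymal cells also differed between the regions, and whether neighbouring tissue contributed was not tested. Of 12 meningeal fibroblast genes, 7 were higher in the PFC, among them Slc22a6 (-2.11), Slc13a4 (-1.97) and Lum (-1.86). Lum measured 2.26, 1.92, 1.76, 1.70 and 7.04 CPM in the PFC and 0.653 to 1.04 CPM in the NAc, where the median was 0.755, with PFC library 6 highest. The summed level was 57.7 to 76.2 CPM in the NAc and 59.7 to 252 CPM in the PFC, and 7 of the genes also passed without PFC library 6. No gene of the list was at 0 in a region, and its part in the PFC-higher genes was not tested. Of 10 choroid plexus and ependyma genes, 5 were higher in the NAc. Clic6 (chloride channel protein) had a median of 26.8 CPM over the NAc libraries (18.5 to 30.5) and PFC levels of 0.396, 0.476, 0.511, 0.851 and 0.901 CPM (log2 fold change 5.34 ± 0.23, adjusted p = 3.9e-10). Ttr (transthyretin) lay between 0.564 and 9.21 CPM in the 6 NAc libraries (median 2.47) and at 0.762, 0.145, 1.09, 1.37 and 1.66 CPM in the 5 PFC libraries (log2 fold change 1.99 ± 0.69, adjusted p = 0.0257), and the regions overlapped for this main choroid plexus gene, which did not pass with PFC library 4 (adjusted p = 0.181) or without NAc library 3 or 4 or PFC library 1 or 2 (adjusted p between 0.0561 and 0.0729) or with the library number as a block (adjusted p = 0.118). Clic6 was high in all NAc libraries. The other 3 genes of the list were too low to be tested, and the count fell to 3 without NAc library 4, PFC library 1 or PFC library 2 and with the block. The summed level was 40.5 to 70.2 CPM in the NAc and 10.8 to 30.2 CPM in the PFC. Of the 9 midbrain dopamine neuron genes, 4 were high enough to test, of which 2 were higher in the NAc.

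**Figure D4:**
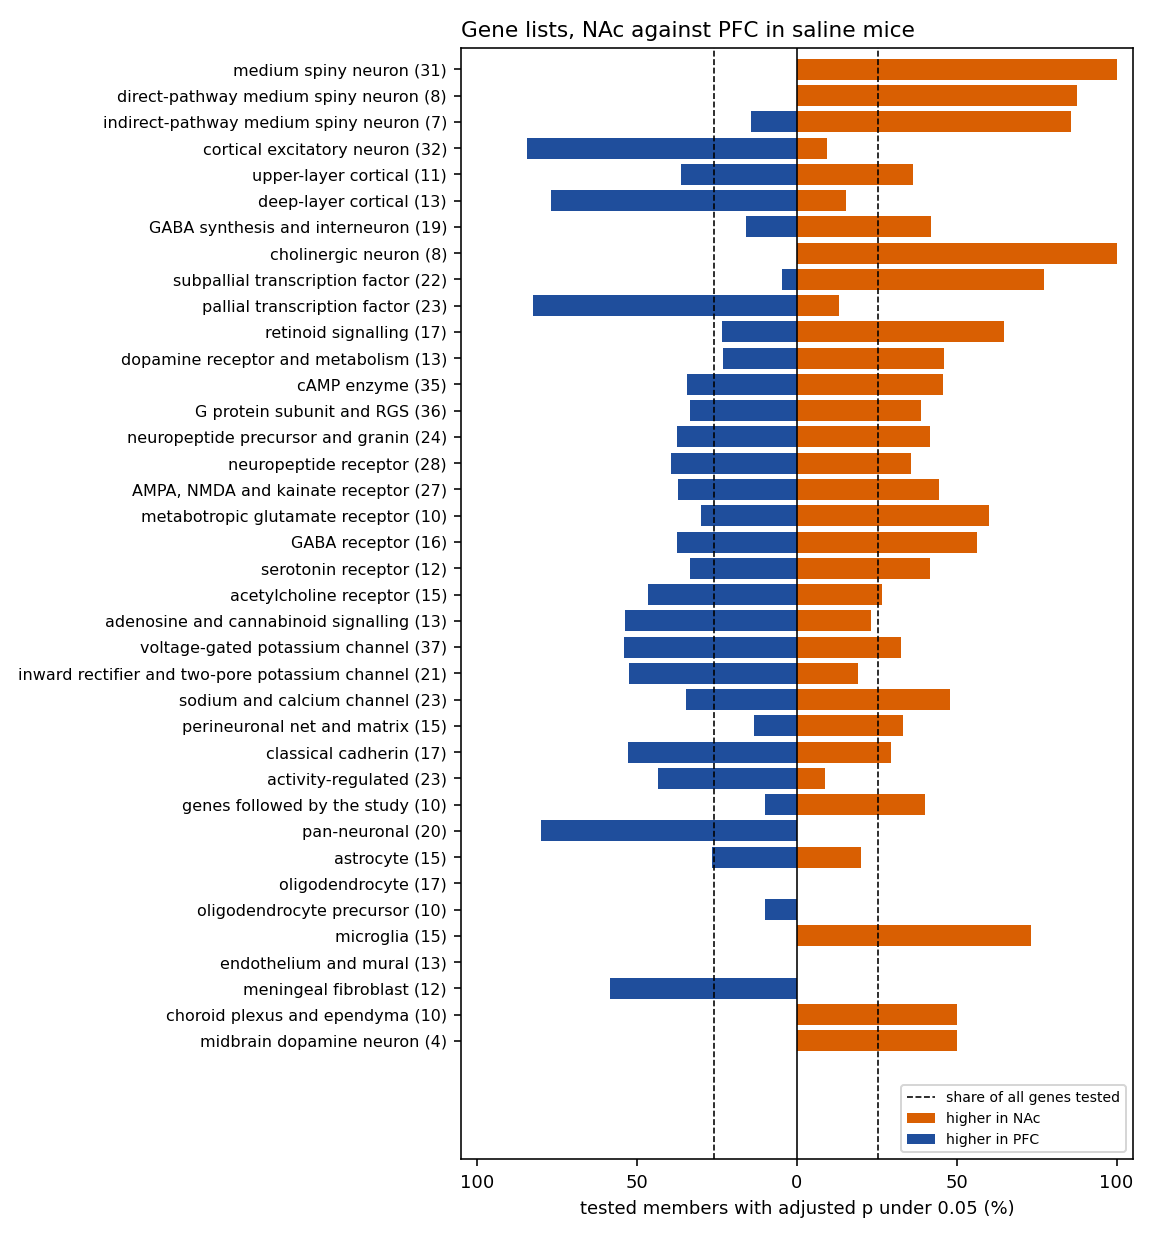
Share of the tested members of each gene list that passed an adjusted p of 0.05 (x axis, percent), to the right for genes higher in the NAc and to the left for genes higher in the PFC, with the number of tested members in parentheses. The dashed lines mark the shares over all genes tested, 25.4% for the NAc and 26.0% for the PFC. Medium spiny neuron and cholinergic neuron genes reach 100% on the NAc side, pallial and cortical excitatory genes lie far to the left, and oligodendrocyte and endothelial lists have no bar.

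The same comparison in mice that had self-administered cocaine used 12 other libraries of the same tables. It called 4496 of 16334 genes higher in the NAc (27.5%) and 4504 higher in the PFC (27.6%). Of the genes at least 2-fold higher in the saline NAc, 888 were tested in both. In cocaine mice 867 of them (97.6%) passed the adjusted p in the same direction. Of the 977 such genes higher in the saline PFC, 945 (96.7%) did. With a 2-fold change required in cocaine mice as well, 761 (85.7%) and 841 (86.1%) passed. None passed in the opposite direction. Over 16260 genes the log2 fold changes of the treatments correlated with a Pearson r of 0.959, which is across genes, and genes are not independent replicates. In cocaine mice Drd2 had a mean of 230.4 ± 30.4 CPM in the NAc and 3.99 ± 1.96 CPM in the PFC (SD, n = 6 each), and Neurod6 4.29 ± 6.15 and 97.9 ± 7.70 CPM. Both kept the direction they had in saline mice. NAc libraries of cocaine mice varied in the same cortical genes, from 20.1% to 34.9% of the saline PFC mean, while their PFC counterparts held 5.94% to 7.22% of the saline NAc mean of medium spiny neuron genes. Nr4a1 again did not pass (log2 fold change -0.40, adjusted p = 0.293).

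**Figure D5:**
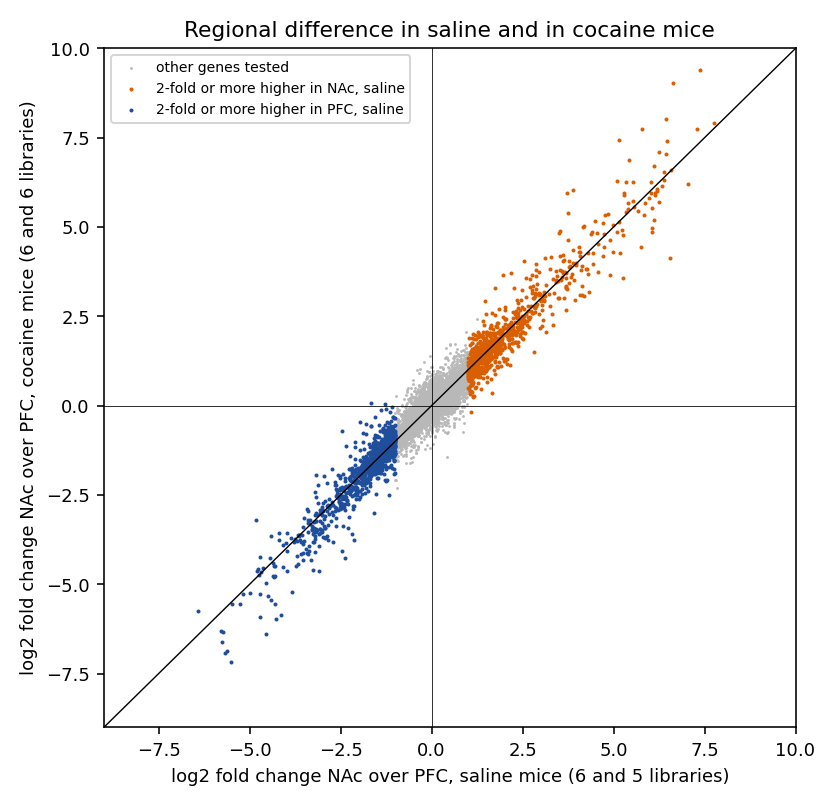
Log2 fold change of the NAc over the PFC in saline mice (x axis) and in cocaine mice (y axis), each point a gene tested in both. Colours mark genes that passed an adjusted p of 0.05 and a 2-fold change in saline mice, and the diagonal marks equal values. The coloured points follow the diagonal, with few near 0 on the y axis.

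Whether the regional difference itself depended on treatment was tested as an interaction in 1 edgeR model over 23 libraries. No gene of 16946 passed an adjusted p of 0.05, 1055 (6.23%) had an unadjusted p under 0.05, and DESeq2 called 7 (0.0413%), with 6.39% at an unadjusted p under 0.05. The smallest p belonged to Irs2, an adaptor of the insulin receptor, with means of 37.3 ± 3.37 and 40.4 ± 2.53 CPM in the saline NAc and PFC and 46.7 ± 4.02 and 35.6 ± 3.17 CPM in the cocaine NAc and PFC (SD). Its regional difference was 0.50 ± 0.10 (SE, log2) larger towards the NAc in cocaine mice (adjusted p = 0.368 with edgeR and 0.00945 with DESeq2). Cks2, Maged1, Lrrn3, Cdh2 and Pnmal2 followed among protein-coding genes, with interaction terms of -1.24, 0.33, 0.49, 0.42 and 0.49 and an adjusted p of 0.368 or 0.371 with edgeR. DESeq2 gave an adjusted p of 0.0432 for Maged1 and 0.0485 for Lrrn3, Cdh2 and Pnmal2, so these were among the 7 it called. The term of Cks2, the largest in size of the 10, pointed towards the PFC in cocaine mice. Cks2 levels were low, with means of 0.608 and 0.394 CPM in the saline NAc and PFC. In the cocaine NAc and PFC they were 0.398 and 0.632 CPM, and DESeq2 gave this gene no adjusted p. Olfm3 (0.52) was also among the 10 smallest, and so were 3 Gm-numbered models, Gm7964, Gm12346 and Gm12141, whose reads may come from near-identical copies.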

How the data were processed

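Saline and cocaine NAc and PFC libraries of the 28-day time point were analysed, 6 of each group. The authors aligned reads with STAR 2.4.1d to mm9 with an Ensembl annotation. The values they deposited are raw read counts, 1 per gene and library. The counting tool and strand setting are not given in the sources used here, so overlapping genes are uncertain. Columns were matched to groups by name, which gives no labelled sample, and 30 columns of no sample were not used. The deposited tables also hold the authors' fold changes and p-values of cocaine against saline, which were not used.

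The tables were joined on 37681 gene identifiers. Genes passed filterByExpr (minimum count 10, minimum total 15), libraries were scaled by TMM, and regions were tested with glmQLFit and glmQLFTest in edgeR 4.0.16 (R 4.3.3), with Benjamini-Hochberg adjustment over all genes. SEs came from the F statistic. The cocaine comparison and the interaction (23 libraries) were fitted likewise. Positions were taken from GENCODE vM1 (mm9), and 608 of 610 list genes were found. Promoters came from RefSeq. The test was checked on simulated data. No libraries of a group were identical, and each pair differed by more than sampling noise (chi-square per degree of freedom at least 7.92). The sources used here do not tie a library to 1 animal, so p-values measure the spread between libraries, which may be partly technical.

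The genes named were the members of 38 lists, the 15 genes in each direction with the largest change (adjusted p under 0.05, at least 10 CPM in the higher region, no overlap of libraries) and the 10 with the smallest interaction p. Some genes that the rule names are not reported here. Members and lists were chosen with earlier results of these data known. Alternatives were PFC library 4 included, each library left out, DESeq2 1.42.0, its size factors, upper-quartile normalization, no filter and a replicate block. Figures were drawn with matplotlib 3.10.9.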

Additional observations from a re-analysis of the deposited data

Results flagged for a closer look

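For each named gene, the highest and the lowest library of a group were set against the rest, by the gap to the nearest other library divided by the whole range of the group. The gap passed Dixon's 95% critical value for 35 of 580 gene and group pairs, or 6.03%, where chance gives about 5%. The genes of a library are not independent of each other. The values below are the level in that library, the range of the others and the ratio.

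NAc library 6 stood apart for 8 genes. It was highest for 9130024F11Rik (2.09 CPM against 0.0728 to 0.450, ratio 0.813), Chrnb3 (0.563 CPM against 0.0668 to 0.208, ratio 0.716), Gm12824 (1.62 CPM against 0.194 to 0.593, ratio 0.721), Krt80 (1.06 CPM against 0.137 to 0.297, ratio 0.828), Myl4 (3.25 CPM against 0.847 to 1.54, ratio 0.7104), Rspo2 (4.21 CPM against 0.243 to 1.24, ratio 0.748) and Trbc2 (1.72 CPM against 0.0265 to 0.356, ratio 0.806). It was lowest for Dlx5 (12.2 CPM against 16.3 to 18.2, ratio 0.696). The genes it had in excess were higher in the PFC than in the NAc, with and without it.

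NAc library 1 stood apart for 13 genes. It was highest for Aldh1a3 (0.860 CPM against 0.185 to 0.344, ratio 0.765), Bhlhe22 (5.84 CPM against 0.850 to 2.35, ratio 0.699), Gfap (84.4 CPM against 24.4 to 38.6, ratio 0.764), Homer2 (48.2 CPM against 18.4 to 29.4, ratio 0.631), Htr3a (3.74 CPM against 1.88 to 2.49, ratio 0.673), Ntsr1 (7.71 CPM against 2.96 to 4.61, ratio 0.654), Pnoc (4.06 CPM against 1.22 to 2.18, ratio 0.663), Rara (10.6 CPM against 6.41 to 7.86, ratio 0.659) and Stra6 (21.8 CPM against 12.9 to 16.1, ratio 0.637). It was lowest for Grik2 (94.7 CPM against 116 to 128, ratio 0.660), Oprk1 (30.3 CPM against 47.2 to 55.1, ratio 0.682), Per2 (42.3 CPM against 59.6 to 63.6, ratio 0.814) and Slc5a7 (21.1 CPM against 35.7 to 40.3, ratio 0.761). Of its 9 high genes, 8 were higher in the PFC and Stra6 was higher in the NAc, and its 4 low genes were higher in the NAc.

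NAc library 2 was highest for Gabrg1 (43.1 CPM against 28.7 to 33.8, ratio 0.648) and Otof (85.5 CPM against 48.4 to 54.7, ratio 0.828). NAc library 4 was highest for Sfxn1 (69.1 CPM against 60.2 to 63.0, ratio 0.683). NAc library 5 was highest for Htr6 (9.85 CPM against 8.23 to 8.78, ratio 0.657). PFC library 1 was highest for Gm7964 (22.1 CPM against 17.9 to 19.1, ratio 0.723). PFC library 1 was lowest for Chrm2 (11.9 CPM against 14.2 to 15.1, ratio 0.731). PFC library 2 was highest for Drd1 (22.4 CPM against 18.2 to 18.9, ratio 0.838) and Kcna5 (6.76 CPM against 2.58 to 3.35, ratio 0.815). PFC library 2 was lowest for Zbtb18 (268 CPM against 324 to 342, ratio 0.760). PFC library 5 was lowest for Drd2 (2.83 CPM against 3.77 to 3.96, ratio 0.830). PFC library 6 was highest for Grm8 (33.9 CPM against 29.0 to 29.4, ratio 0.911), Lum (7.04 CPM against 1.70 to 2.26, ratio 0.896), Neurod6 (115 CPM against 97.3 to 102, ratio 0.715) and Ngfr (2.91 CPM against 1.63 to 1.95, ratio 0.748).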

How the results depend on the processing

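Counts over all genes in the saline and cocaine comparisons stayed within 1.5 times the reported value under every alternative. Across them 3719 to 4693 genes were higher in the NAc and 3915 to 4614 in the PFC, and 794 to 1239 and 941 to 1303 by at least 2-fold, where the extremes include no filter on low counts (1239 and 1303). Upper-quartile normalization moved the balance to the NAc (4693 against 3915). Leaving out each library gave 3719 to 4099 and 4069 to 4614. With PFC library 4, 1711 of 1910 of the 2-fold genes tested in both fits kept both their direction and a 2-fold change, and without NAc library 6, 1886 of 1918. The interaction test called 7 genes with DESeq2 and 0 with edgeR, also with PFC library 4 and without NAc library 6, and the cause was not tested.

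Of 290 named genes tested, 257 passed in the main fit, where 51.4% of all genes did. In every alternative 273 of the 290 kept their side of the threshold and none reversed. The named genes include those with the largest changes, so this stability does not describe all genes tested. PFC library 4 cost 4 calls and gave 1. Chrm1, Slc18a2 and Adcy3 lay near the threshold (adjusted p = 0.0503, 0.0533 and 0.0509) and passed in some alternatives (lowest adjusted p 0.0182, 0.0199 and 0.00874). Small list counts moved most. Subpallial factors higher in the PFC numbered 0 to 3 when 1 library was left out, GABA and interneuron genes higher in the PFC 3 to 5, activity-regulated genes higher in the NAc 1 to 4, endothelial genes higher in the NAc 0 to 4 (most without NAc library 3), oligodendrocyte genes higher in the PFC 0 to 2 (most without PFC library 2) and midbrain dopamine genes higher in the NAc 1 to 2. Upper-quartile normalization called 3 endothelial genes and 1 pan-neuronal gene higher in the NAc. With PFC library 4, 1 activity-regulated and 1 midbrain dopamine genes were higher in the NAc. With the library number as a block, 5 activity-regulated genes and 1 endothelial gene were higher in the NAc. The same fit put 2 subpallial factors and 5 GABA and interneuron genes higher in the PFC.

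Columns with the same number in both regions varied together for some numbers and not for others. The correlation of deviations from the group means was 0.024 to 0.425 over 5 numbers, and -0.434 to 0.352 for columns with different numbers. NAc library 3 correlated best with PFC library 5. All 5 same-number correlations were positive, but only 3 were over 0.1, and treating the numbers as pairs required every one over 0.1. Whether the numbers pair the libraries is not settled, so the fit without a block was kept and the fit with it is given beside it. With the number as a replicate block, 4070 genes were higher in the NAc and 4175 in the PFC, 924 and 981 by at least 2-fold, and in cocaine mice 4247 and 4404. The block made 3 named genes pass, among them Nr4a1 (log2 fold change -0.38, adjusted p = 0.00592) and Egr1 (-0.23, adjusted p = 0.0105), and 2 lose their call.

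Region and deposited table coincide, punches mix cells, and the split of libraries by animal is not given, so the values describe these libraries. On simulated counts for the saline comparison (16543 genes, 200 changed) the test recovered 84% of 2-fold and 56% of 1.5-fold changes. In the real comparison 8500 genes (51.4%) passed, and the adjustment is less strict when more genes change. These shares therefore do not give the power of the real test. A gene that missed the threshold may still differ. Levels under about 0.1 CPM rest on a few reads per library.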

Other observations

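Transcripts of the mitochondrial genome took a larger share of reads in the NAc than in the PFC. The share was 4.22% to 5.33% in the 6 saline NAc libraries (4.74% ± 0.415, SD) and 2.67% to 3.84% in the 5 saline PFC libraries (3.23% ± 0.525), without overlap (two-sided exact permutation test of the means, p = 0.00433, the smallest this design can give). In the cocaine libraries the means were 4.67% ± 0.433 and 3.74% ± 0.394 (SD, n = 6 each, exact permutation p = 0.00216). Of 13 mitochondrial protein-coding genes tested, 10 were higher in the saline NAc and 0 in the PFC, with log2 fold changes of 0.24 to 0.81 and a median of 0.59, where 25.4% of all genes were higher in the NAc. Whether dissection or library preparation contributed was not tested.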
